A study of Mus musculus with 6 samples.

Results

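Integrins are the receptors by which cells hold on to their matrix, and 10 of their subunit genes are described here in the uteri of aged mice: the alpha subunits Itga2, Itga3, Itga5, Itga6, Itga8 and Itgav and the beta subunits Itgb1, Itgb4, Itgb6 and Itgb8. The members are a list of names, chosen with earlier results of these data known, and all 10 were rows of the single-cell table of 24077 genes and of the 4 spatial tables of 30828 genes. The mice were CD-1 females given subcutaneous corn oil (control, CO) or diethylstilbestrol (DES, a synthetic estrogen) at 1 mg/kg/day on neonatal days 1 to 5, and their uteri were taken at 12 months of age. The CO mice were in estrus when sampled, because the cycle of adult DES mice stays at that stage. Cells freed with trypsin from uterine horns, pooled over fewer CO than DES mice, gave 1 CO and 1 DES single-cell library. The 4 Visium sections, named CO A, CO B, DES A and DES B, came from a different mouse each. The authors checked the DES sections for uterine adenocarcinoma and describe the DES mice of the study as having it. Blocks were selected and cored for areas of interest. What part tumor tissue had in the differences between treatments was not tested.

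An integrin is a pair of 1 alpha and 1 beta chain, and the pair sets which ligand is bound. The beta1 chain (Itgb1) has many alpha partners: with alpha2 (Itga2) it binds collagen, with alpha3 (Itga3) laminin, with alpha5 (Itga5) fibronectin and with alpha8 (Itga8) nephronectin and other ligands that hold an RGD motif. The beta4 chain (Itgb4) pairs with alpha6 (Itga6) alone, and this laminin receptor is the core of the hemidesmosome, which fastens the basal layer of a stratified epithelium to its basement membrane. The alphav chain (Itgav) pairs with beta6 (Itgb6), an epithelial chain, and with beta8 (Itgb8), and both pairs bind the latent form of TGF-beta.

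Each member was placed on GRCm38 (mm10) by the GENCODE annotation. Itga2 lies on the minus strand at chr13:114833081-114932100, Itga3 on the minus strand at chr11:95044474-95076801 and Itga5 on the minus strand at chr15:103344286-103366763. Itga6 (plus strand, chr2:71745616-71858416), Itga8 (minus strand, chr2:12106632-12301922), Itgav (plus strand, chr2:83724397-83806916) and Itgb6 (minus strand, chr2:60598292-60722643) share chromosome 2. Itgb1 is at chr8:128685654-128733200 and Itgb4 at chr11:115974709-116008412, both on the plus strand, and Itgb8 is on the minus strand at chr12:119158022-119238802. Gm13663 and Gm13662 lie within Itga6 on its own strand, as do Gm37701 in Itga8 and Mir6963 in Itga5. How reads in the shared stretches were counted was not checked. Gm17250 and Gm13739 overlap Itga6 on the opposite strand, as E030013I19Rik does Itga8, Gm13684 and Dnmt3l-ps1 do Itgav and B230344G16Rik does Itgb4.

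Promoter sequence was found in RefSeq for 8 of the 10 members (all but Itga6 and Itgb4). The 250 bases before the start of 3 of them are shown, as examples of members with contrasting levels: Itga2 had the largest ratio of basal to other epithelial cells, whereas Itga5 and Itga8 were low in epithelium-rich spots and high in muscle-rich spots of every section. They run 5′ to 3′ on the gene's own strand, at chr13:114932101-114932350 for Itga2, chr15:103366792-103367041 for Itga5 and chr2:12301945-12302194 for Itga8, all on the minus strand of GRCm38.p6. Capitals mark a GC box (GGGCGG on either strand). No GENCODE exon lies in the Itga2 and Itga5 windows, and the Itga8 window lies in an exon of E030013I19Rik, a non-coding gene of the opposite strand.
Itga2: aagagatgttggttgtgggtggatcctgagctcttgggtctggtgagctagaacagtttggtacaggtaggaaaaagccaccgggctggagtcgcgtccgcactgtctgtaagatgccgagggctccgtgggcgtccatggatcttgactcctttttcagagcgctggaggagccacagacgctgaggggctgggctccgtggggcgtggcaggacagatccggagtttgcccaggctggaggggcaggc
Itga5: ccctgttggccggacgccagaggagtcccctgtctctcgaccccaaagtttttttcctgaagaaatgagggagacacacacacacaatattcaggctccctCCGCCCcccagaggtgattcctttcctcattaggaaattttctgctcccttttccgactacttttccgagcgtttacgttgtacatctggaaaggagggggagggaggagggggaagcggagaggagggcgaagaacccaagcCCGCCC
Itga8: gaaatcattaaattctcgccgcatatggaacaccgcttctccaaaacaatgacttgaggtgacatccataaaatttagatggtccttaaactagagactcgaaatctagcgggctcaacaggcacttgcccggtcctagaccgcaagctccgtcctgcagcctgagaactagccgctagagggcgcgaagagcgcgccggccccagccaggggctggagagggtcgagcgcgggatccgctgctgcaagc
The Itga5 window held 2 GC boxes, and the Itga2 and Itga8 windows held none. GC boxes were in 32.7% of all 32851 RefSeq windows of this length. Neither the AP-1 motif (TGANTCA, in 6.75% of all windows), the TATA box (TATAAA, 12.4%) nor the p53-family core motif (7.13%) matched on either strand in these 3 windows.

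The 2 libraries held 32387 CO cells with a median of 6779 UMIs (unique molecular identifiers, each a captured transcript) and 16312 DES cells with a median of 10153.5, and the 4 sections held 1357 to 1834 spots and 9117099 to 12506177 UMIs. Of the cells, 12253 CO and 9701 DES cells carried a cell type from the authors, and 180 barcodes were in both libraries, 1.10% of the DES cells. The DES library had 1 stromal and 5 endothelial cells and no pericytes or myocytes, so stroma and muscle could be compared between treatments only in the sections. Levels are given as CPM, the UMIs of a gene per 1000000 UMIs summed over the cells of a group, with exact Poisson 95% intervals that cover counting error only. Transcripts were tagged at their 3′ end, so CPM does not grow with gene length. Basal cells were the DES epithelial cells in which Krt14 and Trp63 each had over 1 UMI, 483 of 5255 (9.19%), and no CO cell met this rule. The remaining epithelial cells of the authors' clusters for each library, 2583 CO and 4604 DES, are called non-basal. A further 168 DES epithelial cells, outside both the rule and those clusters, are in neither group.

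The labels of these groups were checked against marker genes. Epithelial markers (Epcam, Krt8, Krt18 and Cdh1) summed to 3516 CPM in CO and 2535 CPM in DES non-basal cells, against 956 and 466 CPM in the mesothelium of the same libraries. Epithelial transcripts were also counted in other cells. Epcam had a UMI in 93.4% of CO and 90.2% of DES non-basal epithelial cells, and still in 33.5% of CO and 17.4% of DES lymphocytes, with every cell thinned to 3000 UMIs. In the CO library, Itga6 reached 19.2% and Itgb4 7.1% of their epithelial level in lymphocytes, so low levels of these genes outside the epithelium cannot be told from background.

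Each member had its own order over the 15 groups of cell type and library that held at least 50 cells. Itgb1 was measured in all of them, from 454 CPM in CO pericytes, 369 in myocytes, 302 in endothelium and 276 in stromal cells down to 72.7 CPM in DES non-basal epithelium, the lowest group, whose interval (71.4 to 74.0) met no other. Pericytes and myocytes, and endothelial and stromal cells, had intervals that overlapped.

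The chains of the hemidesmosome and of epithelium followed another order. Itga6 was highest in CO endothelium (308 CPM, interval 287 to 330), CO non-basal epithelium (266, interval 263 to 270) and DES basal cells (244, interval 235 to 254), which were apart from each other and from DES non-basal epithelium (91.7). No other group passed 58.4 CPM. Itgb4 was highest in basal cells at 174 CPM (interval 166 to 182). CO non-basal epithelium (56.2) and CO endothelium (52.1) came next with overlapping intervals, then DES non-basal epithelium (35.0), and every other group was at 14.6 CPM or less. Itgb6 was close to epithelial-only, at 32.0 CPM in basal, 30.4 in DES non-basal and 24.5 in CO non-basal cells, with no other group above 3.25 CPM. The basal and DES non-basal intervals of Itgb6 overlapped.

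The collagen and laminin receptor chains of beta1 were highest in basal cells. Itga2 was at 51.9 CPM there, at 29.7 in CO endothelium and at 12.1 in CO non-basal epithelium, and these 3 intervals did not overlap. Itga3 was at 60.7 CPM in basal cells, at 46.4 in DES and 38.3 in CO mesothelium, and then at 22.8 in CO endothelium and 22.4 in CO non-basal epithelium, the last pair overlapping.

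The remaining chains were highest outside the epithelium. Itga5 led in CO myocytes (67.5 CPM) and endothelium (65.8), which overlapped, and was at 28.3 in CO stromal cells and at 4.57 in DES non-basal epithelium, the lowest group. Itga8 was rare throughout: 18.3 CPM in the CO cells that the authors named for Ctla2a and 13.7 in myocytes, again overlapping, with 3.15 in CO stromal cells and 1 UMI in all basal cells. Itgb8 led in the Ctla2a cells too, at 67.4 CPM, followed by basal cells (36.6) and CO non-basal epithelium (33.3), which overlapped. Itgav had CO mesothelium (113), CO non-basal epithelium (112) and DES mesothelium (107) at its top, each overlapping the next, and its lowest group was at 17.5 CPM.

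**Figure D1:**
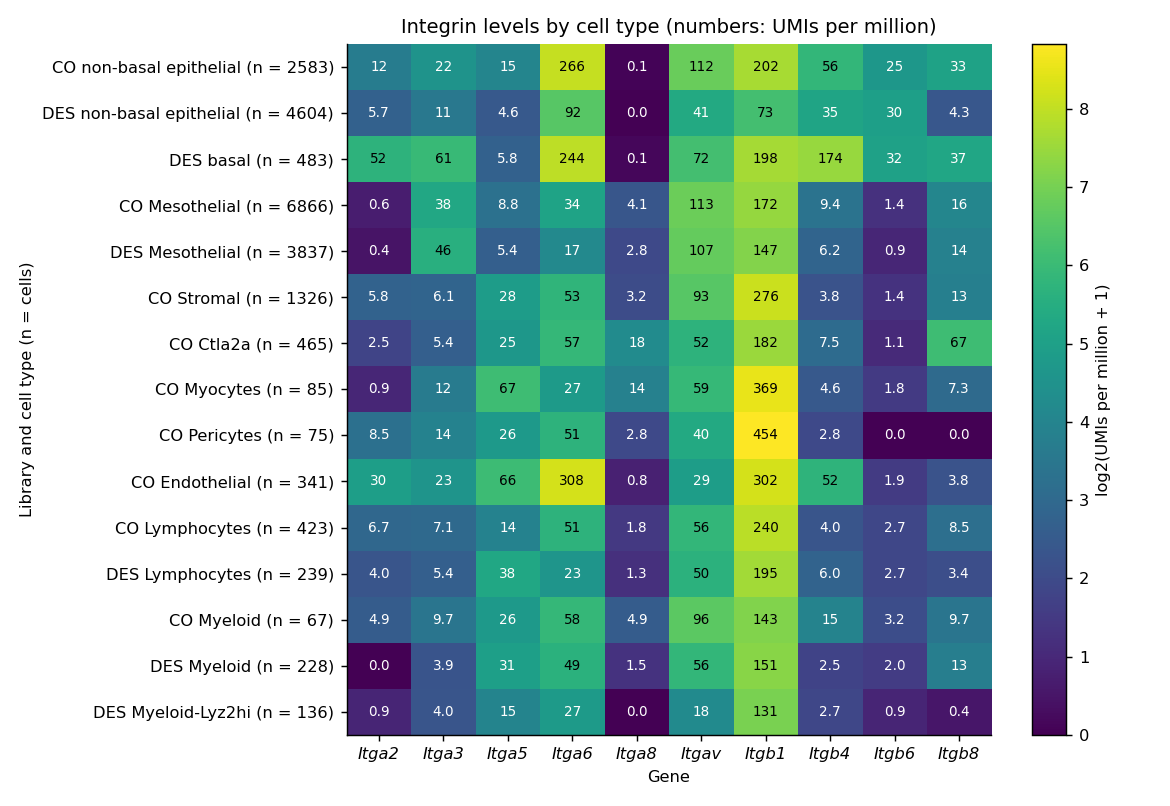
Heat map of the 10 integrin genes (columns) in each group of cell type and library with at least 50 cells (rows, with the number of cells), coloured by log2(CPM + 1) and with the CPM written in each cell. Itgb4 reaches 174 CPM in basal cells, while Itgb1 in DES non-basal epithelium, at 72.7 CPM, is below every other group.

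The first comparison asked how the non-basal epithelium of DES uteri differed from that of CO uteri. Of 9 members that reached 5 CPM in either library, 7 were at least 2-fold lower in DES cells and none was 2-fold higher, where 8.16% of all 10119 genes were 2-fold lower and 8.99% were 2-fold higher. The members' median log2 ratio was -1.46, against 0.09 over all genes. With 1 library for each treatment there is no replicate and no test, and the intervals on these ratios (exact conditional binomial) cover counting error only.

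Among the alpha chains, Itga6 was at 91.7 CPM in DES and 266 CPM in CO cells, a ratio of 0.34 (0.34 to 0.35). Itgav was at 40.6 against 112 CPM (ratio 0.36, interval 0.35 to 0.37), and Itga5, the fibronectin receptor chain, at 4.57 against 15.04 CPM (0.30, interval 0.28 to 0.33). Itga2 and Itga3 had nearly the same ratio: 5.65 against 12.1 CPM for Itga2 (0.47, interval 0.43 to 0.51) and 10.5 against 22.4 CPM for Itga3 (0.47, interval 0.44 to 0.50). Itga8 had 5 UMIs in all CO and 0 in all DES non-basal cells, too few to compare.

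The beta chains spread further. Itgb8 had the lowest ratio of all members, with 4.32 CPM in DES and 33.3 CPM in CO cells (0.13, interval 0.12 to 0.14). Itgb1 was at 72.7 against 202 CPM (0.36, interval 0.35 to 0.37). Itgb4 was less than 2-fold lower, at 35.0 against 56.2 CPM (0.62, interval 0.60 to 0.65), and Itgb6 was the single member above 1, at 30.4 against 24.5 CPM (1.24, interval 1.18 to 1.31). Itgb6 and Itgb8, which are among the chains that can join Itgav, thus had opposite directions, with Itgb6 slightly higher and Itgb8 lower in DES cells.

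The share of cells with a UMI, in cells thinned to 3000 UMIs, gave the same picture for the abundant members. Itga6 was seen in 48.8% of 2562 CO cells and 21.8% of 4555 DES cells, and Itgb1 in 43.8% and 19.1%. Itgb8 was seen in 10.5% and 1.45%. Itgb6 was seen in 6.75% of CO and 8.06% of DES cells, with overlapping exact 95% intervals (5.81 to 7.79% and 7.28 to 8.89%). Median depth before thinning was close, at 23458 UMIs per CO cell and 24636.5 per DES cell. Markers of other cells differed too: the 5 muscle markers summed to 13.7 CPM in CO and 1.80 in DES non-basal cells, the 4 stromal markers to 16.03 and 1.99 (Dpt was at 0 in the DES cells) and the 4 mesothelial markers to 43.9 and 22.6. Their part in the ratios was not tested.

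The authors' epithelial clusters showed how far this reached within the epithelium. All 16 DES clusters were below all 15 CO clusters for Itgb1 (56.1 to 95.4 CPM against 105 to 251) and for Itgb8 (1.13 to 14.2 against 25.5 to 52.8). The same was true of 15 DES clusters for Itga5 and Itgav, 14 for Itga3 and 11 for Itga6, and of none for Itga2, Itgb4 and Itgb6. These counts rest on point values. For Itgb1 the intervals of the highest DES cluster (84.3 to 107.5) and the lowest CO cluster (91.5 to 120.3) overlapped. For Itgb8 they did too (10.1 to 19.3 and 18.6 to 34.1). Clusters of 1 library share that library and are not replicates, so these counts are descriptions. The share of all genes with such a separation was not computed, so the counts do not set the members apart.

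Within the CO epithelium, Itga6 ranged widely, from 111 CPM in cluster 12 to 514 in cluster 14 and 616 CPM in cluster 3, both of which the authors placed among glandular cells. Summed over the glandular clusters (417 cells), Itga6 was at 462 CPM, Itga3 at 35.1 and Itgb8 at 47.8, against 245, 20.8 and 31.6 CPM in the luminal clusters (2095 cells). Itgb4, Itgb6, Itga2, Itga5 and Itgb1 had the reverse order. Itgb4 was at 19.3 CPM in glandular and 61.8 CPM in luminal cells. Against the luminal 245 CPM, Itga6 was also higher in glandular cluster 13 (323 CPM) but not in glandular cluster 8 (126 CPM). In thinned cells Itga6 was seen in 54.0% of glandular (49.0 to 58.8%) and 48.2% of luminal cells (46.0 to 50.4%), with overlapping intervals. Itgb6 was at 8.61 against 26.5 CPM, Itga2 at 2.53 against 13.5 CPM, Itga5 at 9.99 against 15.7 CPM and Itgb1 at 122 against 213 CPM. Luminal cluster 7 had the most Itgav (291 CPM) and the most Itgb6 (57.6 CPM).

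Over the DES clusters Itga6 ranged from 47.9 CPM in cluster 12 to 204 CPM in cluster 15. Cluster 15 had the highest level among the DES clusters of 5 members, also of Itga2 (27.7 CPM), Itgav (81.6 CPM), Itgb1 (95.4 CPM) and Itgb8 (14.2 CPM). Its Itga2 level had an interval (21.9 to 34.5) that overlapped that of the highest CO cluster, cluster 11 at 24.4 CPM (19.7 to 30.0). Itgb6 peaked in cluster 7 at 46.5 CPM. In DES cluster 5, which the authors put forward as cancer cells, Itga6 was at 83.5, Itgb1 at 70.5 and Itgb4 at 25.7 CPM, inside the range of the other DES clusters.

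**Figure D2:**
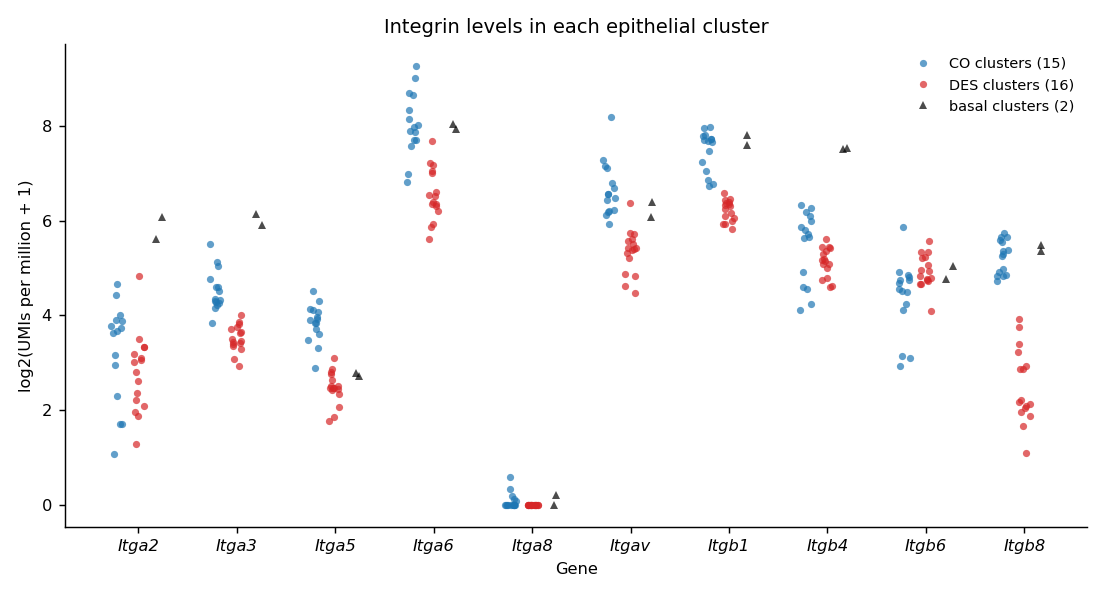
Level of each integrin gene, as log2(CPM + 1), in the authors' epithelial clusters, with 1 point per cluster: 15 CO clusters in blue, 16 DES clusters in red and the 2 basal clusters of the joint map as black triangles. All DES points lie below all CO points for Itgb1 and Itgb8, though the nearest clusters have overlapping counting intervals. The groups mix for Itga2, Itgb4 and Itgb6. The share of all genes that separate in this way was not computed.

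Mesothelium, the outer lining of the uterus, was the other abundant cell type in both libraries. Of 7 members that reached 5 CPM, none was 2-fold higher or lower in 3837 DES against 6866 CO cells, where few of all 10570 genes were (2.32% higher and 2.79% lower), so this count does not set the members apart. Their median log2 ratio was -0.23, against -0.02 over all genes. Itgb1 was at 147 against 172 CPM (ratio 0.85, interval 0.83 to 0.87), Itgav at 107 against 113 CPM (0.95, interval 0.92 to 0.98) and Itgb8 at 13.7 against 15.5 CPM (0.88, interval 0.81 to 0.96). Itga3 was higher in DES mesothelium, at 46.4 against 38.3 CPM (1.21, interval 1.15 to 1.28). Itga6 was nearest to 2-fold, at 16.95 against 33.8 CPM (0.50, interval 0.47 to 0.54), and Epcam in the same cells was at 28.2 against 80.2 CPM. As a mean over cells of counts per 10000, the ratio was 0.43. What share of the Itga6 counts came from epithelial RNA was not tested. Itga5 (0.62) and Itgb4 (0.66) were also lower, the Itgb4 ratio being close to its 0.62 in non-basal epithelium, and Itga2, Itga8 and Itgb6 were below 5 CPM in both libraries.

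Basal cells, which lie under the luminal cells in stratified epithelia and express Krt14 and Trp63, were then set against the non-basal epithelium of the same DES library. The rule used Krt14 and Trp63 and no integrin, but both sides come from 1 library, so these values again have no test. Of 9 members that reached 5 CPM, 6 were at least 2-fold higher in basal cells and none was 2-fold lower, where 10.2% of all 10360 genes were 2-fold higher and 8.60% were 2-fold lower. The median log2 ratio was 1.44 for the members and -0.05 for all genes.

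Itga2 had the largest ratio. It was at 51.9 CPM in basal and 5.65 CPM in non-basal cells (ratio 9.18, interval 8.23 to 10.2), and Itga3 was at 60.7 against 10.5 CPM (5.77, interval 5.25 to 6.33). Itgb4 was at 174 against 35.0 CPM (4.97, interval 4.71 to 5.24), whereas its partner Itga6 was at 244 against 91.7 CPM (2.66, interval 2.55 to 2.78). Itgb1 was at 198 against 72.7 CPM (2.72, interval 2.59 to 2.85).

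The TGF-beta-binding chains differed among themselves. Itgb8 was at 36.6 against 4.32 CPM (8.47, interval 7.44 to 9.62), Itgav at 72.4 against 40.6 CPM (1.78, interval 1.65 to 1.93) and Itgb6 at 32.0 against 30.4 CPM (1.05, interval 0.93 to 1.18). Counting error therefore did not separate the groups for Itgb6, nor for Itga5 (5.76 against 4.57 CPM, ratio 1.26, interval 0.95 to 1.65). Itga8 had 1 UMI in basal and 0 in non-basal cells.

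Set beside CO non-basal epithelium, basal cells had Itgb1 (198 against 202 CPM) and Itgb8 (36.6 against 33.3 CPM) at levels whose intervals overlapped, Itga6 (244 against 266 CPM), Itgav (72.4 against 112 CPM) and Itga5 (5.76 against 15.04 CPM) lower, and Itgb4 (174 against 56.2 CPM), Itga2 (51.9 against 12.1 CPM) and Itga3 (60.7 against 22.4 CPM) higher. Itgb6 was at 32.0 against 24.5 CPM. Median depth was lower in basal cells, at 16093 UMIs per cell. After thinning, Itgb4 was seen in 42.7% of 483 basal cells (exact interval 38.2 to 47.2%) against 11.04% of DES and 14.7% of CO non-basal cells, and Itga3 in 18.4% against 3.82% and 6.75%. Epcam was seen in 75.4% of basal cells.

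The basal cells fell almost wholly in a pair of the authors' clusters from the joint map of both libraries, 263 of them in cluster 8 and 209 in cluster 11. All DES cells of cluster 8 (351 cells) and cluster 11 (257 cells) had similar levels: Itgb4 at 185 and 181 CPM, Itga6 at 261 and 243, Itga3 at 59.1 and 69.3 and Itgb8 at 44.0 and 40.1. Itga2 (47.7 against 66.8 CPM), Itgav (66.2 against 82.9 CPM) and Itgb1 (192 against 223 CPM) were higher in cluster 11, with intervals that did not overlap.

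A receptor needs both chains in 1 cell. After thinning, Itga6 and Itgb4 were seen together in 22.4% of basal cells, 6.71% of CO and 2.46% of DES non-basal cells and 7.14% of CO endothelial cells. Among basal cells Itga6 was seen in 52.4% of those with Itgb4 and 48.0% of those without, with overlapping intervals (45.4 to 59.4% and 42.0 to 54.1%). Itga2 with Itgb1 was seen in 7.87% of basal, 1.52% of CO and 0.241% of DES non-basal cells. Itga3 with Itgb1 was seen in 9.32%, 3.08% and 0.878% of the same groups. Itgav with Itgb8 was seen in 2.48% of basal, 3.47% of CO non-basal and 0.176% of DES non-basal cells, and Itgav with Itgb6 in 2.28%, 2.22% and 0.922%. Among basal cells Itga2 was seen in 16.5% of those with Itgb1 and 13.8% of those without, and Itga3 in 19.6% and 17.4%. Itgav was seen in 21.8% of basal cells with Itgb8 and 20.6% without, and in 30.6% with Itgb6 and 19.9% without. In each case the intervals overlapped.

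**Figure D3:**
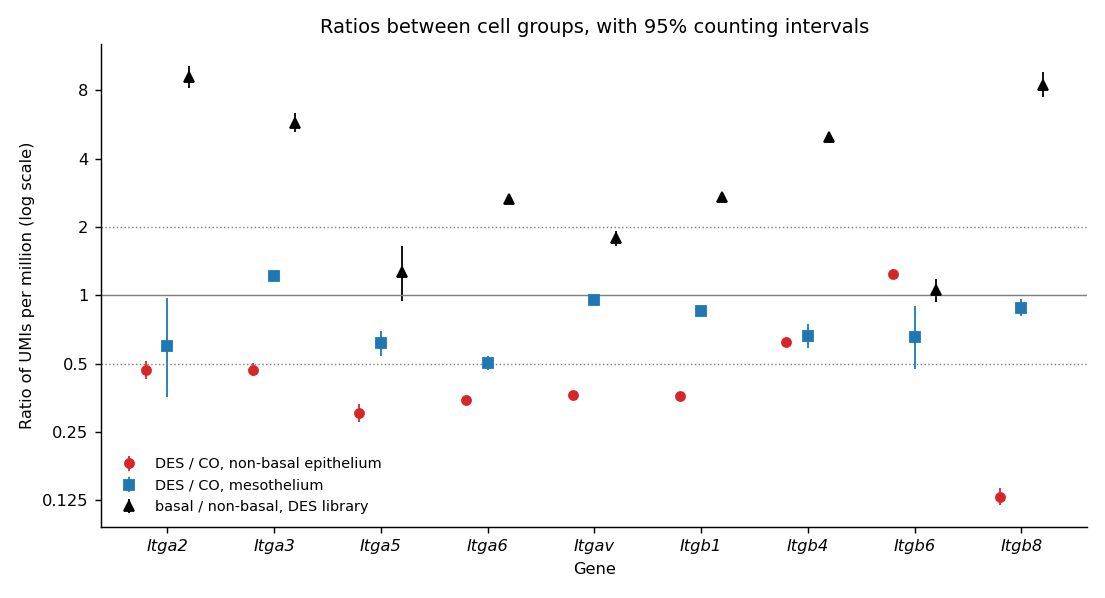
Ratio of CPM for 9 integrin genes (all but Itga8, with 0 UMIs in DES non-basal cells) in the 3 single-cell comparisons: DES over CO in non-basal epithelium, DES over CO in mesothelium, and basal over non-basal cells of the DES library. The axis is logarithmic, bars are exact 95% intervals for counting error, and lines mark ratios of 0.5, 1 and 2. Itgb8 has the lowest ratio in non-basal epithelium (0.13), and Itga2 has the highest in basal cells (9.18).

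Ligands and partners of the integrins were followed as lists in the same comparisons. In non-basal epithelium, 6 of 11 basement membrane genes that reached 5 CPM were 2-fold lower in DES cells and 1 was higher. Lama3, a laminin chain of epithelial basement membranes, was at 10.7 against 34.7 CPM (ratio 0.31). Of 8 interstitial and RGD ligands, 6 were 2-fold lower, among them Spp1 (osteopontin) at 6.68 against 118 CPM, and 1 was higher, Ltbp1, which holds latent TGF-beta in the matrix, at 22.9 against 4.44 CPM. Of 12 adhesion complex genes, 3 were lower (Tln1 0.43, Vcl 0.40 and Fermt2 0.26, which link integrins to actin), and none of 3 hemidesmosome genes passed 2-fold. Of 5 other integrin subunits, 1 was lower (Itga1, 1.45 against 15.6 CPM) and 1 higher (Itga2b, 38.9 against 12.4 CPM).

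Basal cells had the other partners of the hemidesmosome as well. All 4 hemidesmosome genes were 2-fold higher than in non-basal cells: Col17a1 at 312 against 1.46 CPM, Dst at 250 against 64.0, Plec at 232 against 93.7 and Cd151 at 123 against 55.0. Of 11 basement membrane genes, 5 were higher, including Lama3 (3.96) and Lamb3 (4.28), and none was lower. Of 8 interstitial and RGD ligands, 5 were higher and 1, Spp1, was lower. Tgfb2 was at 99.5 against 3.604 CPM, Tgfb1 at 20.8 against 1.34 CPM and Ltbp1 at 163 against 22.9 CPM. The adhesion complex had 3 of 12 higher, and other integrin subunits had 2 of 5 higher (Itga1 9.25 and Itgb5 2.79) and 1 lower (Itgam 0.27).

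In mesothelium, where 2.79% of all genes were 2-fold lower, the median ratio was 0.84 for interstitial and RGD ligands and 0.89 for basement membrane genes. Fn1 (fibronectin) was at 12.8 CPM in DES and 306 CPM in CO cells (ratio 0.04), and Spp1 was lower too, 2 of 11 interstitial and RGD ligands. Of 16 basement membrane genes, 3 were lower, among them the collagen IV chains Col4a1 (45.8 against 262 CPM) and Col4a2 (33.7 against 118 CPM). Fermt1 was the only adhesion complex gene of 12 past 2-fold, and no hemidesmosome gene or other integrin subunit passed it.

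The genes whose levels were most like a member's over the 15 groups were named by Pearson's r of log2(CPM + 1), among 10236 genes with at least 20 CPM in some group. The groups of 1 library share that library and any free RNA in it. For Itgb6 these were Ehf (0.97), Tmprss2 (0.97) and Sv2b (0.97), for Itga3 Bcam (0.96), Arhgef28 (0.91) and Syne2 (0.89), and for Itgb4 Fam57a (0.92), Fam60a (0.90) and Ttll5 (0.88). Itga2 was most like Iffo2 (0.90), Ly6a (0.88) and Asxl2 (0.86), and Itga6 most like Tnfsf10 (0.90), Pik3c2a (0.89) and Sgsm1 (0.88). For Itga5 they were Tubb6 (0.89), Coro1c (0.87) and Entpd1 (0.85), and for Itga8 Csdc2 (0.88), Hoxd11 (0.88) and Fam102b (0.88). Itgav was most like Pdia3 (0.86), Pdia6 (0.84) and Vma21 (0.81), and Itgb8 most like Adck4 (0.84), Fst (0.80) and Pnpt1 (0.79). For Itgb1 they were Phrf1 (0.85), Itga1 (0.85), an alpha partner of beta1, and Ppp1r12a (0.83).

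The sections were then used to compare the tissue itself, with 2 mice for each treatment. Spots hold several cells, so fewer cells of a type and less RNA per cell cannot be told apart, and the makeup of the sections differed. Basal markers (Krt14, Krt5 and Trp63) summed to 3.36 and 160 CPM in the CO sections and to 9526 and 5644 CPM in the DES sections. Muscle markers summed to 13345 and 14168 CPM in the CO sections and to 3077 and 3458 in the DES sections, stromal markers to 1318 and 991 against 651 and 412, and myeloid markers to 327 and 654 against 2038 and 1137. Epithelial markers summed to 1899 and 1469 CPM against 1985 and 2343. CO B had a fold in the tissue, per the authors.

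Summed over whole sections, Itgb4 rose and Itga5 fell in DES uteri. Section values are given with section A before section B. Itgb4 was at 65.1 and 51.1 CPM in the CO and at 216 and 199 CPM in the DES sections. Both DES sections were above both CO sections, and edgeR's quasi-likelihood test gave a log2 change of 1.62 ± 0.20 (SE, n = 2 sections each) with an adjusted p of 0.0276. Itga5 was at 130 and 87.1 CPM in the CO and at 45.3 and 33.8 CPM in the DES sections, again without overlap. Its log2 change was -1.67 ± 0.28 (edgeR, adjusted p = 0.0439). Genes that rose were 2.67% and genes that fell 2.63% of the 14098 tested, and 2 of the 10 members were called. Without DES A or without DES B, neither call held (edgeR adjusted p of 0.184 and 0.183 for Itgb4, 0.202 and 0.275 for Itga5).

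The other 8 members did not pass the test in whole sections. Itga3 was at 30.7, 39.5, 81.3 and 80.6 CPM over the CO and then the DES sections, with no overlap between treatments, a log2 difference of 1.00 ± 0.18 and an edgeR adjusted p of 0.0524. Itgb1 was at 284, 319, 245 and 240 CPM in the same order, without overlap but with an edgeR adjusted p of 0.139. Itgav (102, 93.6, 91.1 and 89.7 CPM) and Itgb6 (18.1, 21.1, 26.2 and 24.4 CPM) also did not overlap, with differences well under 2-fold. The share of all genes without overlap was not computed, here or in the spot groups below. A lack of overlap therefore does not set the members apart. Itga6 was at 103 and 43.1 CPM in the CO sections and 104 and 78.8 in the DES sections. For Itga2 (28.0, 5.35, 26.9 and 18.8 CPM) and Itga8 (13.8, 41.6, 25.9 and 15.2) both DES sections lay between the CO sections, and for Itgb8 (14.8, 9.34, 7.68 and 13.1) the treatments overlapped. In an exact permutation test of 2 against 2 sections the smallest two-sided p is 0.333, so single values could not reach 0.05 that way.

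**Figure D4:**
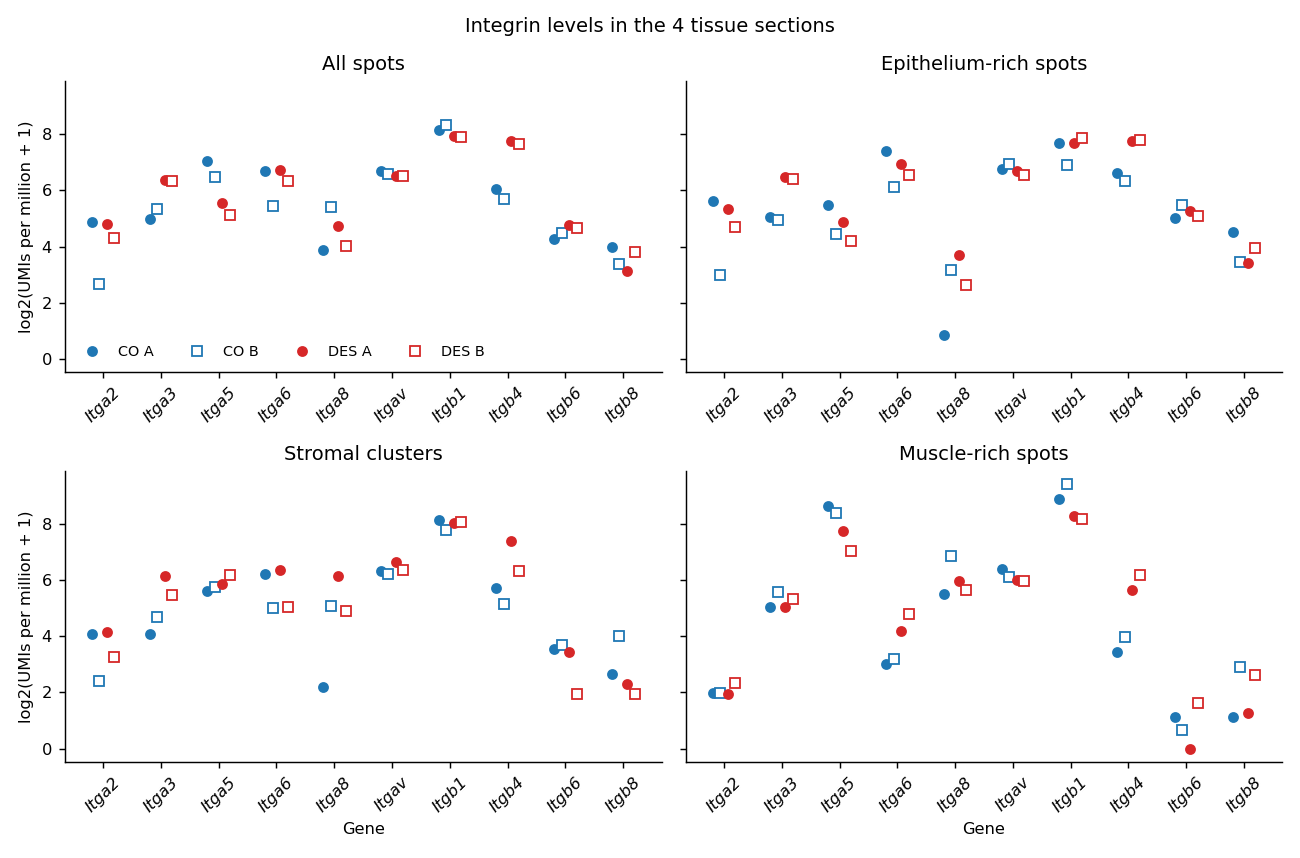
Level of each integrin gene, as log2(CPM + 1), in all spots, epithelium-rich spots, the authors' stromal clusters and muscle-rich spots of the 4 sections, with 1 point per section (blue for CO, red for DES, circles for A, open squares for B). Itgb4 over all spots is at 51.1 and 65.1 CPM in CO and at 199 and 216 CPM in DES.

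Epithelium-rich spots were the 15% of each section with the highest epithelial marker score. There Itga3 was at 31.8 and 30.0 CPM in CO and at 87.7 and 84.6 CPM in DES sections, and it rose by 1.16 ± 0.19 on the log2 scale (edgeR, adjusted p = 0.0316). The edgeR values use TMM scaling, which CPM does not, so the 2 can differ. For Itga3 the ratio of mean CPM was 2.78, against 2.24 by edgeR. Itga3 was the 1 member called of 10 tested, where 4.39% of 11432 genes rose and 2.55% fell. The call was lost without DES A (edgeR adjusted p = 0.271) and without DES B (0.269). Itgb4 was at 97.2, 78.9, 216 and 220 CPM in the same order, a log2 difference of 0.99 ± 0.21 with an edgeR adjusted p of 0.0539.

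This Itga3 value ran opposite to that of the non-basal cells, whose DES level was 10.5 CPM and CO level 22.4. By log2 difference Itgb4, Itgb1 (0.11 ± 0.32) and Itgb6 (-0.40 ± 0.25) also ran opposite to the non-basal cells, none of them called. Itga5, Itga6, Itgav and Itgb8 were lower in DES by both measures, and no member was called lower here. Itga2 had a log2 difference of -0.13 ± 0.82. Its levels were 48.0 and 6.93 CPM in CO and 39.2 and 24.8 CPM in DES sections, the latter between the CO values. The members' median log2 difference was -0.26, against -0.02 over all genes. In all DES spots of this kind the basal markers summed to 8953 and 6195 CPM, against 3.57 and 175 CPM in the CO spots. How much of the Itga3 change, or of the other differences, came from basal cells was not tested. Itga6 was at 166, 67.7, 122 and 93.5 CPM here, Itgb1 at 206, 119, 207 and 230, and Itgb6 at 31.3, 43.9, 37.8 and 32.7 CPM, CO sections first, with treatments overlapping for Itga6 and Itgb6. Itgav was at 107, 120, 103 and 92.1 CPM, lower in both DES sections without passing the test (edgeR adjusted p = 0.148).

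Muscle-rich spots, chosen likewise by smooth muscle markers, held more Itga5 and Itgb1 than the epithelium-rich and stromal spots of the same section. Itga8 was also highest there in CO A, CO B and DES B, but in DES A the stromal spots were higher (69.9 against 61.9 CPM). In both DES sections the intervals of muscle-rich and stromal spots overlapped for Itgb1 and Itga8. In the 15% of spots highest in stromal markers, DES means were 301 CPM for Itgb1 and 57.1 for Itga8, against 298 and 55.6 in muscle-rich spots. Itgb4 was low in muscle-rich spots but rose: CO A had 9.94, CO B 14.6, DES A 48.9 and DES B 72.0 CPM, a log2 change of 2.09 ± 0.37 (edgeR, adjusted p = 0.0418). It was the 1 member called of 7 tested, where 1.09% of 9898 genes rose and 0.586% fell, and the call was lost without DES B (edgeR adjusted p = 0.150). Basal markers in the same spots summed to 1.75 and 8.20 CPM in CO and to 1573 and 1745 CPM in DES sections, and muscle markers to 50157 and 51398 against 26621 and 21667 CPM. Their part in the Itgb4 change was not tested.

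Itga5 in muscle-rich spots was at 395 and 331 CPM in CO and 213 and 131 CPM in DES sections, a log2 difference of -1.31 ± 0.29 that did not pass (edgeR adjusted p = 0.0779). Itgb1 was at 465, 682, 307 and 290 CPM, with a log2 difference of -1.17 ± 0.27 (edgeR adjusted p = 0.0861). For both genes the treatments did not overlap. Itga8 was at 43.9, 115, 61.9 and 49.4 CPM, with both DES sections between the CO sections. Itga6 was low, at 7.02, 8.20, 17.3 and 26.7 CPM (edgeR adjusted p = 0.181).

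The stromal spots were the clusters the authors assigned to stroma, 101 and 188 spots in the CO and 211 and 132 in the DES sections. Stromal markers there summed to 2222 and 1018 CPM in CO and to 1641 and 1106 CPM in DES sections. The CO B sum was close to that of its whole section (991 CPM) and below that of its muscle-rich spots (1676 CPM). Epithelial markers in the stromal spots summed to 1196 and 867 CPM in CO and to 1129 and 727 CPM in DES sections. None of the 8 members tested was called, where 0.796% of 8914 genes rose and 0.673% fell. At an unadjusted p under 0.05 edgeR had 1194 genes, 2 of them members (Itga3 and Itgb4), and DESeq2 called 0 members. Itga3 was at 16.1, 24.9, 68.9 and 43.3 CPM, CO sections first (log2 difference 1.39 ± 0.40, edgeR adjusted p = 0.156), and Itgb4 at 51.9, 34.7, 165 and 77.9 CPM (1.48 ± 0.41, edgeR adjusted p = 0.135). Basal markers in these spots summed to 0 and 90.0 CPM in CO and to 7058 and 1998 CPM in DES sections.

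The chains usual for mesenchyme showed no called change in the stromal spots either. Itgb1 was at 278, 219, 258 and 269 CPM and Itga5 at 48.3, 53.1, 57.1 and 72.2 CPM in the same order, while Itga8 was at 3.58 and 32.5 CPM in CO and at 69.9 and 28.9 CPM in DES sections, which overlap. These values depended on how the spots were chosen. With the 15% of spots highest in stromal markers, Itga5 was at 176.5 and 149 CPM in CO and at 55.6 and 69.7 CPM in DES sections (log2 difference -1.55, edgeR adjusted p = 0.0506), Itgb1 turned to -0.68 and the Itga8 difference went from 1.32 to 0.093. Muscle markers in these spots summed to 18048 and 25298 CPM in CO and to 4401 and 8336 CPM in DES sections, and their part was not tested. Muscle markers in the authors' stromal spots were at 888 and 700 CPM in CO and at 2705 and 8369 CPM in DES sections, and in DES B 50 of the 132 spots were also muscle-rich.

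Within each section some members ran with an epithelial marker and others with muscle or stromal markers over the authors' spot clusters (10 per section, 8 used in DES A). Spearman's rho with Epcam was 0.89, 0.88, 0.83 and 0.95 for Itga6, CO sections first, and 0.98, 0.58, 0.95 and 0.89 for Itgb6. With Myh11, the myosin of smooth muscle, it was 0.89, 0.66, 0.64 and 0.85 for Itga5 and 0.75, 0.81, 0.67 and 0.67 for Itga8. With Dpt, a stromal marker, Itga5 had 0.26, 0.44, 0.64 and 0.76 and Itga8 had 0.21, 0.70, 0.90 and 0.84, so in the DES sections Itga8 ran closer to Dpt than to Myh11. Itgb1 had rho from -0.90 to -0.77 with Epcam. Itga3 had rho of -0.22 and -0.25 with Epcam in the CO sections, and of 0.74 and 0.68 with it, and of 0.83 and 0.79 with Krt14, in the DES sections. In CO B, Itga2 (0.27 with Epcam and -0.31 with Myh11) and Itgb8 (0.25 and -0.21) ran only weakly with either marker, and in DES B Itgav had 0.18 with Epcam. The clusters of a section share its library, and the rho values are descriptions.

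In muscle-rich spots Itga5 was 4.50 and 7.79 times (CO) and 6.77 and 5.62 times (DES) its level in the rest of the section, and Itga8 was 4.83 and 4.07 times (CO) and 2.70 and 4.31 times (DES) its level elsewhere. In stromal spots Itga8 was 0.25 and 0.77 times (CO) but 3.43 and 1.97 times (DES) its level elsewhere, with intervals that held 1 in CO B and DES B. In the spots chosen by stromal markers Itga8 was at 15.6 and 78.0 CPM in CO and at 61.4 and 52.9 CPM in DES sections, and the interval overlapped that of the whole section in CO A alone. Itgb6 in epithelium-rich spots was 2.48 and 3.51 times the rest in CO but 1.69 and 1.48 times in DES sections. Itgb4 was 1.87 and 1.94 times the rest in CO and 0.998 and 1.143 times in DES sections, with intervals of 0.899 to 1.107 in DES A, where the levels inside and outside these spots were not told apart, and 1.028 to 1.268 in DES B.

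The 15% of spots with the highest basal marker score were set against the rest of the DES sections. Basal markers summed to 18470 and 12142 CPM in these spots and still to 7173 and 4369 CPM in the rest, which thus also held basal RNA. Itgb4 was at 320 against 189 CPM in DES A, and in DES B the levels were 327 and 173 CPM. Itga6 was 1.59 and 1.51 times and Itga3 1.31 and 1.40 times the rest of the section. Itgb1 was at 0.976 and 1.007 times the rest, Itga2 at 1.07 and 1.87 times and Itgb8 at 0.79 and 1.54 times, and of these the interval left out 1 for Itga2 in DES B alone. Cluster 10 of CO B, with 17 spots, had the most Itgb4 of all CO clusters, at 163 CPM, and Itga6 at the same level was within the range of CO A clusters. Without it the basal markers of CO B summed to 53.2 in place of 160 CPM, and Itgb4 in CO B was at 49.1 CPM.

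**Figure D5:**
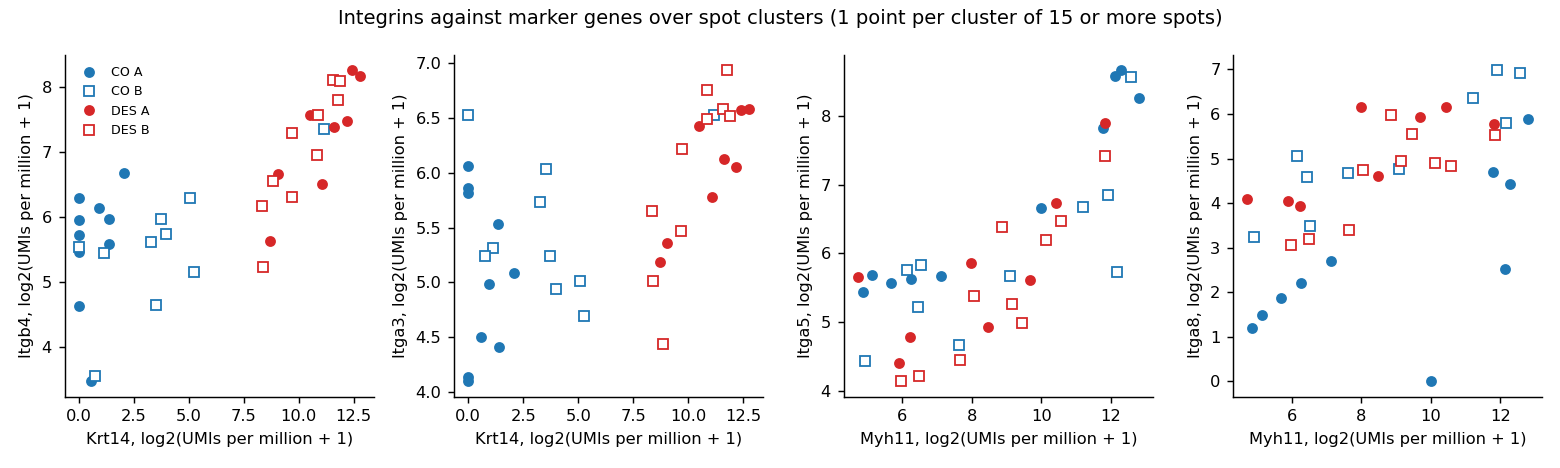
Levels of Itgb4 and Itga3 against Krt14 and of Itga5 and Itga8 against Myh11, all as log2(CPM + 1), with 1 point per spot cluster of at least 15 spots (blue for CO, red for DES, circles for A, open squares for B). Itgb4 climbs with Krt14 over the DES clusters (rho 0.79 and 0.93), and 1 CO B cluster, number 10, lies among the DES points.

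Ligands and partners were called in the sections as follows. In whole sections, 5 of 20 basement membrane genes fell, among them Col4a1 (log2 -2.74) and Col4a2 (-2.42), and 2 rose, with Lama1 at 3.54 (edgeR adjusted p of 0.0212, 0.0212 and 0.0190). Of 15 other integrin subunits, 3 fell, among them Itgb3 (-2.03) and the collagen receptor chain Itga1 (-1.90), and Itgax (3.25) and Itgb2 (1.80), both of leukocytes, rose beside the higher myeloid markers. Fermt2 (-1.63), Ilk (-1.38) and Vcl (-1.28), which join integrins to actin, fell among 12 adhesion complex genes beside the lower muscle markers. Plec rose (2.30-fold) among 4 hemidesmosome genes, and of 13 interstitial and RGD ligands Col3a1 (-1.69) and Fn1 (-1.46) fell and Ltbp1 (1.38) rose. What part the makeup of the sections had in these calls was not tested.

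In epithelium-rich spots, Col17a1 (4.73) and Plec (1.49) of the hemidesmosome rose, as did 4 of 11 interstitial and RGD ligands, Ltbp1 (4.07), Tnc (3.69), Tgfb2 (3.29) and Tgfb1 (2.84). Lama1 (4.58) rose and Col4a1 (-2.50), Lama2 (-1.90) and Col4a2 (-1.73) fell among 18 basement membrane genes, Fermt1 (-1.46) fell among 12 adhesion complex genes and Itgax (3.27) and Itgb2 (2.04) rose among 14 other subunits, beside myeloid markers that summed to 134 and 227 CPM in CO and to 1832 and 716 CPM in DES sections. In stromal spots, Col17a1 (4.96), Tnc (3.61) and Ltbp1 (1.88) rose and Col4a1 (-2.01) and Col4a2 (-1.83) fell, with no call among 11 other subunits or 10 adhesion complex genes. In muscle-rich spots, Col17a1 (5.20), Spp1 (3.24) and Itgam (2.81) rose, and Col4a1 (-2.11), Col4a2 (-1.69), Lamb1 (-1.67), Col3a1 (-1.66), Fbn1 (-1.42), Ilk (-1.31) and Vcl (-1.29) fell. Myeloid markers in these spots summed to 319 and 642 CPM in CO and to 1002 and 1063 CPM in DES sections. All of these list genes had an edgeR adjusted p under 0.05. Without DES B, edgeR called no gene in epithelium-rich spots and 3 in whole sections, so all calls named for epithelium-rich spots were lost.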

How the data were processed

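The authors aligned reads to mm10 with GENCODE genes in Cell Ranger 3.0.1 (single cells; base calls with bcl2fastq 2.20.0.422) and Space Ranger 1.2.2 (Visium), looked for swapped barcodes, removed doublets and clustered the cells in Seurat, and clustered the spots in Space Ranger. They deposited raw UMI counts per gene and cell or spot, with cell types and cluster numbers, which were used as given. No single-cell doublet call was repeated, and 350 annotated cells had no counts in the table.

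The members and gene lists were chosen with earlier results of these data known. Counts were summed over cells or spots of a group and divided by the total (CPM). A single-cell gene counted as 2-fold different when it reached 5 CPM in either group, with exact conditional binomial 95% intervals. Shares of cells came from cells thinned to 3000 UMIs (seed 20230), shallower cells left out, with exact Clopper-Pearson intervals. Section sums were tested with edgeR 4.0.16 (R 4.3.3, quasi-likelihood, TMM, filterByExpr, Benjamini-Hochberg at 0.05), and standard errors were the log2 change divided by the square root of F. Marker scores were mean log counts per 10000. All 10 members are named, up to 4 called genes per list and section comparison with the largest change, and the 3 genes most like each member. Single-cell list examples were chosen after their values were seen. The values of 1 list gene are not reported here. The alternatives were DESeq2 1.42.0, its size factors in edgeR, no filter, a block for the section letter, fits that drop 1 section, and other choices of cells and spots. The methods were tested on simulated data, for edgeR with the same dispersion for every gene, which the sections need not share. That test does not show how far the calls made here hold.

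The labels do not say whether the section letters pair the CO and DES sections, and in the main tests they were taken as names only. The correlation of same-lettered deviations from the treatment means was -0.0254 in whole sections and 0.0898 in stromal spots. It was 0.0402 in epithelium-rich and -0.0455 in muscle-rich spots. A single difference between sections per treatment cannot settle whether the letters pair them.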

Additional observations from a re-analysis of the deposited data

Results flagged for a closer look

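A pair of members had opposite directions in the epithelium and the mesothelium of the same 2 libraries. Itga3 had a DES over CO ratio of 0.470 in non-basal epithelial cells and 1.21 in mesothelial cells. Itgb6 had a ratio of 1.24 in non-basal epithelial cells and 0.654 in mesothelial cells, where it was below 5 CPM in both libraries. The difference between the cell types was not tested, since there was 1 library for each treatment.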

How the results depend on the processing

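Counts of called genes moved with the sections and the tool. Whole sections had 747 called genes, 1791 with DESeq2 and from 3 (without DES B) to 2819 (without CO A) with 1 section left out. Epithelium-rich spots had 794, 1390 with no filter and from 0 (without DES B) to 2623 (without CO A). Stromal spots had 131, 714 with no filter and from 40 (without DES A) to 357 (without CO A). Muscle-rich spots had 166, 253 with DESeq2, 825 with no filter, 78 and 781 with the top 10% and 25% of spots, and from 80 (without DES B) to 1316 (without CO B). With 1 section left out, the lone section is assumed to vary like the others.

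With the section letter as a replicate block, 527 genes were called in whole sections, 946 in epithelium-rich, 453 in stromal and 257 in muscle-rich spots, and Itga2 in epithelium-rich spots reversed to 0.29. The block ended no member's call. It added Itgb4 in stromal spots (edgeR adjusted p = 0.0320), which also passed with no filter (0.00785).

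In mesothelium no member was past 2-fold, but 1 (Itga6) was with the mean of counts per 10000 and 3 were past 1.5-fold. No called member reversed. Uncalled members that did were Itga5 (-1.55), Itgav (-0.38) and Itgb1 (-0.68) with stromal spots taken by marker score, and Itga3 (0.021) in the top 25% of muscle-rich spots. With 1 section left out, log2 differences in whole sections ran from -0.53 to 1.90 for Itga2, -0.41 to 0.90 for Itga6 and -1.21 to 0.33 for Itga8. In stromal spots they ran from -0.64 to 0.83 for Itga6 and -0.11 to 0.18 for Itgb1. In epithelium-rich spots they ran from -0.91 to 1.91 for Itga2, -0.95 to 0.38 for Itga6, -0.17 to 2.99 for Itga8, -0.24 to 0.59 for Itgb1 and -1.18 to 0.0071 for Itgb8, and in muscle-rich spots from -1.31 to 0.13 for Itga8. Itga3 in whole sections, short of the threshold, passed it with DESeq2, with DESeq2 size factors, with no filter, without either CO section and without the 17 spots of CO B cluster 10, the last added after the data were seen (826 genes called). Itgb4 in epithelium-rich spots and Itga5 and Itgb1 in muscle-rich spots, also short of it, each passed under 5 of 10 alternatives, namely with DESeq2, with no filter, without either CO section and with the top 25% of spots. Members that passed under 1 alternative each were Itga2, Itga6 and Itgb1 in whole sections and Itga2 and Itgav in epithelium-rich spots without CO A, Itga5, Itga6 and Itgb8 in epithelium-rich spots without CO B, and in muscle-rich spots Itga8 without CO A (edgeR adjusted p = 4.85e-05) and Itga6 with the top 25% of spots. The causes were not tested. Depth limits Itga8, Itgb6 and Itgb8 in the smaller spot groups.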

Other observations

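Subunits usual for blood cells were measured in the epithelium. Itgam, a chain of myeloid cells, was at 99.0 CPM in CO and 76.7 CPM in DES non-basal epithelial cells, at 20.4 in basal cells and at 4.46 in CO mesothelium. The authors list Itgam among genes relatively specific to the luminal epithelium of CO uteri. Itga2b, known from platelets, was at 12.4 CPM in CO and 38.9 CPM in DES non-basal cells and at 31.2 in basal cells. In whole sections Itgam was at 47.3 and 15.4 CPM in CO and at 124 and 151 CPM in DES uteri, and it was not called. Lyz2, a myeloid marker, was at 4.89 CPM in CO and 13.04 CPM in DES non-basal cells. These genes were chosen after their values were seen.

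The 20134 CO and 6611 DES cells with no cell type from the authors belong to no comparison. Their median depths were 4138 and 2178 UMIs. Itga6 was at 126 CPM in these CO and 62.2 CPM in these DES cells, Itgb1 at 154 and 79.6, and Itgb4 at 28.1 and 28.2 CPM.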
